A study of Mus musculus with 48 samples.

Results

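In mouse embryonic stem cells, 4975 active promoters had a listed ZBTB11 event and no listed ZFP131 event. They were chosen from 4 lists of the authors: each is a wildtype H3K4me3 domain of at least 500 bp with an event of HA-tagged ZBTB11 within 500 bp, no event of HA-tagged ZFP131 within 500 bp and no overlap with a wildtype H3K27me3 domain. Of 48733 wildtype H3K4me3 domains, 19337 were at least 500 bp long and 12634 of these were free of H3K27me3. The other active promoters of the same length comprised 1385 bound by both factors, 344 bound by ZFP131 alone and 5930 bound by neither. These names follow the lists, which differ in size. The ZBTB11-HA list held 22448 events with 16.8% of its reads in them, and the ZFP131-HA list 3637 with 6.0%. A missing event in the shorter list does not show that ZFP131 was absent. Members were ordered by the ZBTB11-HA reads of their events, summed per domain, and split into 10 deciles from weak to strong.

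ZBTB11 and ZFP131 are zinc finger proteins with a BTB domain, a fold through which many transcription factors pair and recruit cofactors. H3K4me3 and H3K27ac mark active promoters, whereas H3K27me3 is laid down by Polycomb repressive complex 2 at silent ones and is normally kept off CpG islands that are transcribed. NELF holds RNA polymerase II shortly after initiation, SIN3A is the scaffold of a histone deacetylase complex, CHD4 is the remodelling ATPase of NuRD, and SETD1A methylates H3K4.

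The series holds 48 ChIP-seq samples in 24 groups of 2, with 9 targets and 4 genotypes. The genotypes are Zbtb11KO with an inducible Zbtb11-HA transgene, Zfp131KO with an inducible Zfp131-HA transgene, a double knockout with inducible Zbtb11-HA and Zfp131-V5, and the wildtype Ainv15(iCre) line. For the chromatin marks and cofactors, cells spent 3 days in LIF medium with neither doxycycline nor the 2i kinase inhibitors. HA was mapped in the knockout lines with 2i after 3 days of doxycycline at 3 ng/ul, so the binding that defines the promoters was of an induced, tagged protein in another medium. The labels name 1 line per genotype, so a knockout cannot be told apart from a difference between lines. Nothing in them says whether the 2 replicates of a group came from separate cultures, so p-values may measure technical spread only. All deposited values describe a pooled group or a comparison, and none describes a single library at a promoter. No SD over libraries can be given, and an SE or adjusted p below is that of the authors' deposited DESeq2 tables. Every knockout is compared with the same wildtype libraries. ChIP signal does not check that the coding sequences were deleted.

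The event lists rest on 24.0 to 71.6 M reads. Among defining genes of embryonic stem cells, 9 of 10 had an active wildtype promoter and Esrrb carried H3K27me3, while 0 of 6 primitive endoderm genes, 0 of 6 fibroblast genes and 1 of 5 neural genes had one. The members fitted the label of active promoters. In wildtype, 98.2% held a NELF event, 95.6% a domain of RNA polymerase II phosphorylated at serine 5 and 92.6% an H3K27ac domain, and a SIN3A event was listed at 4876 of the 4975. The shortest member measured 500 bp and the longest domain left out for its length 499 bp. The farthest event that was accepted lay 495 bp away and the closest event of an unbound domain 501 bp away, and 4844 members had the nearest event inside the domain. The median wildtype H3K27me3 domain was 71 bp long, so a short patch of that mark sufficed for exclusion, and 6703 domains of 500 bp or more were left out by it. One consequence holds for all results on that mark: no member could lose an H3K27me3 domain.

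Binding strength covered a wide range. The median summed ZBTB11-HA count was 41.5 reads in decile 1, 542.7 in decile 9 and 2281.2 in decile 10, and decile 10 ran between 957.3 and 9229.3 reads. The highest value belonged to a domain on the mitochondrial genome, whose other values are given at the end, apart from the results. The ranking that follows takes only members at a protein-coding start site. First among these came the promoters of Cfap298, a gene of ciliary dynein assembly, with 4455.6 reads, and of Alg3, an N-glycan mannosyltransferase gene, with 4331.5 reads. Banf1, which encodes a chromatin protein of the nuclear envelope, followed with 4330.0 reads and shares its promoter with Eif1ad. Tnpo3, a nuclear import receptor gene, had 4261.8 reads. Alkbh3, a gene of nucleic acid demethylation, had 4253.0 reads. Rbbp5, which encodes a core subunit of the SETD1 and MLL H3K4 methyltransferases, had 4207.7 reads. Strong members also differed from weak ones in the mark used to choose them: wildtype H3K4me3 had a median of 1514.5 reads per domain in decile 1 and 2794 in decile 10.

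Letters of the ETS family site were found more often the stronger the binding. Promoter windows of 300 bases, 250 before and 50 after a RefSeq start site (GRCm38.p6, the assembly also called mm10), were searched on both strands for exact letters. Only members with a window are shown. The first 6 windows are of the genes with the most ZBTB11-HA reads among them. The next 2 are of the genes with the widest H3K27me3 cover in Zbtb11KO among them, Mkrn3 and Mrps18c, which shares its promoter with Helq. The last is of Cuedc1, whose promoter had the fewest reads (26.1) among members with a window. Capitals mark CCGGAAG or its reverse complement CTTCCGG, which are contained in the ETS letters CCGGAAGT and ACTTCCGG.
Cfap298, chr16:90934800-90935099, minus strand: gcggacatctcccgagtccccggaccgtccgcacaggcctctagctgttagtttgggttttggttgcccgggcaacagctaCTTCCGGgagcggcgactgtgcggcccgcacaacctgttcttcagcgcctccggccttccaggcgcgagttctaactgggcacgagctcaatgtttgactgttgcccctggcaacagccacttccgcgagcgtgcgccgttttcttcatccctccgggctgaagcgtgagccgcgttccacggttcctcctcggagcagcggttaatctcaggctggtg
Alg3, chr16:20610712-20611011, minus strand: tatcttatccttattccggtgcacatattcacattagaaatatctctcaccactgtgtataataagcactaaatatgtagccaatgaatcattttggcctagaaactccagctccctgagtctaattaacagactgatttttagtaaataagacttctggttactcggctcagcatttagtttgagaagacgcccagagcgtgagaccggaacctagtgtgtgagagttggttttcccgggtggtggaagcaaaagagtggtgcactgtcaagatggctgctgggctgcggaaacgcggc
Banf1, chr19:5366827-5367126, minus strand: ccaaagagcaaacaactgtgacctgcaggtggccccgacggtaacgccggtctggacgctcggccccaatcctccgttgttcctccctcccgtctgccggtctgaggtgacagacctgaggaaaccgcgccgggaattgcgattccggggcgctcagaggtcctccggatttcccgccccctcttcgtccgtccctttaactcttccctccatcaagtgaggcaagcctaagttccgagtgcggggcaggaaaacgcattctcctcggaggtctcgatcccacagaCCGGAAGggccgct
Tnpo3, chr6:29609800-29610099, minus strand: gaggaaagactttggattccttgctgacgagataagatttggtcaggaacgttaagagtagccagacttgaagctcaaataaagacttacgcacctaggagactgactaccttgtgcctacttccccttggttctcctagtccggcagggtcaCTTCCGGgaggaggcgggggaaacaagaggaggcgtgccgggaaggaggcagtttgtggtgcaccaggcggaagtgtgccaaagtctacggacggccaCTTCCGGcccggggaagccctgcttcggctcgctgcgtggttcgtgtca
Alkbh3, chr2:94010681-94010980, minus strand: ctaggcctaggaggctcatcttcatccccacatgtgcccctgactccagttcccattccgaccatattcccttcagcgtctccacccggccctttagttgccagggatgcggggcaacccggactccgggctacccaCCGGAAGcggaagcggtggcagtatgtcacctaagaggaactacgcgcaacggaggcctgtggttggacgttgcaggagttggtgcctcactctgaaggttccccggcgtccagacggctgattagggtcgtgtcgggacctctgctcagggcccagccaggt
Rbbp5, chr1:132477117-132477416, plus strand: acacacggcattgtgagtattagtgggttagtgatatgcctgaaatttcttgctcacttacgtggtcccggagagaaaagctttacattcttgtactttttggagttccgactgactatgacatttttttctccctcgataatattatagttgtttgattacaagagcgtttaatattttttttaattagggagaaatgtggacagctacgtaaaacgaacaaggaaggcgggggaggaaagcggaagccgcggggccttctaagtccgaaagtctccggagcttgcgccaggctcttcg
Mkrn3, chr7:62420104-62420403, minus strand: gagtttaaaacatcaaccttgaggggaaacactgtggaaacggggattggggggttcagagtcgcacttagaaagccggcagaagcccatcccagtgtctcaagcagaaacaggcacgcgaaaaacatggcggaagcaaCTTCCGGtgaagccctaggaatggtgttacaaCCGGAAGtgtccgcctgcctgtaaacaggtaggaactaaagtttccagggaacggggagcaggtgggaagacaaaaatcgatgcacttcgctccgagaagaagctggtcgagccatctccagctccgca
Mrps18c, chr5:100798509-100798808, plus strand: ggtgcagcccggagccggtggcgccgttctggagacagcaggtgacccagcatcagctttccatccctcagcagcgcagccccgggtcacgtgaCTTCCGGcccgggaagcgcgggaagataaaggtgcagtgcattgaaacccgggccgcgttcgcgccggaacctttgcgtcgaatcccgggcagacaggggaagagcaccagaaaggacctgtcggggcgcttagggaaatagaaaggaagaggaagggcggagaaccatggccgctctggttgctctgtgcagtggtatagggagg
Cuedc1, chr11:88169315-88169614, plus strand: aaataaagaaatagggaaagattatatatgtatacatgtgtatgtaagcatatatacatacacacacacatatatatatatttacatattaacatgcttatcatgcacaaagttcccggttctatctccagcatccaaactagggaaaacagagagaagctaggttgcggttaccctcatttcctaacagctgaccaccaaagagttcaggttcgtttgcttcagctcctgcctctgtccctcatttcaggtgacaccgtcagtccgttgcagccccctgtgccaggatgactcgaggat

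The windows of Tnpo3 and Mkrn3 hold 2 copies of the marked letters, those of Cfap298, Banf1, Alkbh3 and Mrps18c hold 1, and those of Alg3, Rbbp5 and Cuedc1 hold 0. Across the deciles, the 8 letters CCGGAAGT occurred in 2.83% of 318 windows in decile 1, in 30.4% of 516 in decile 9 and in 29.2% of 535 in decile 10. They occurred in 15.1% of all members' windows, in 13.6% at promoters bound by both factors, in 2.83% at promoters bound by ZFP131 alone, in 2.64% at unbound ones and in 5.15% of all 21262 promoter windows. The 7-letter core, chosen after these shares were seen, occurred in 8.81% of windows in decile 1 and in 50.3% in decile 10, against 11.6% of all windows. Of the 100 members with the most reads that have a window, 55 held the core. Other letters did not climb with binding. CCAAT occurred in 39.0% of windows in decile 1 and 35.7% in decile 10, against 38.2% of all windows. The SP and KLF letters CCCCGCCC occurred in 41.8% of decile 1 and 20.6% of decile 10, against 23.6% of all windows. The NRF1 letters GCATGCGC occurred in 10.4% of decile 1 and 5.61% of decile 10. The CREB letters TGACGTCA occurred in 1.26% of decile 1 and 0.748% of decile 10, and in 18.6% of windows at promoters bound by ZFP131 alone. The GC share of the windows, which alone changes how often such letters turn up, averaged 65.4% in decile 1 and 59.0% in decile 10. These shares describe letters in a window and no test was made of them.

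**Figure D1:**
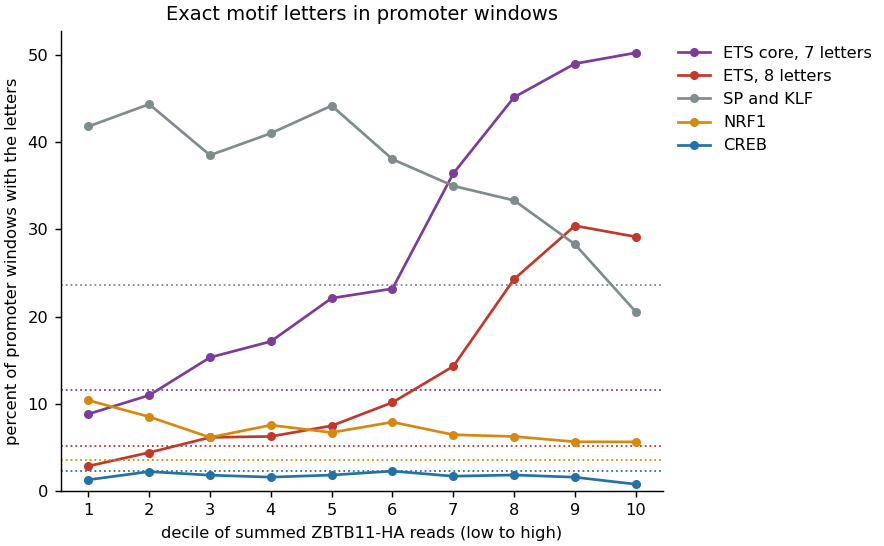
Percent of members' 300-base promoter windows that hold the exact letters of 5 motifs (vertical axis), by decile of summed ZBTB11-HA reads from low to high (horizontal axis). Points are deciles and dotted lines the share of all 21262 windows; the ETS core reaches 50.3% in decile 10 while the SP and KLF letters reach 20.6%.

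The strong events also lay closer to the start site. At the 3309 members with a protein-coding start site, the strongest ZBTB11 event lay a median of 353 bp downstream of the start in decile 1 and 4 bp upstream of it in decile 10 (a median of -4 bp). It lay within 100 bp of the start at 5.49% of members in decile 1 and at 62.3% in decile 10. Where the core letters were present, they lay a median of 312.5 bp from the strongest event in deciles 1 to 3 and 54 bp in decile 10. They lay within 25 bp of it at 18.3% of such members in deciles 7 to 9 and at 48 of 210 (22.9%) in decile 10. The core was searched in the windows only. The strongest event lay inside the window at 16 of 108 such members in deciles 1 to 3 and at 151 of 210 in decile 10. The distance therefore largely follows the position of the event. Decile 10 was also richer in gene starts: 81.1% of its members lay at a protein-coding start, against 54.8% in decile 1, and 14.1% held starts on both strands, against 2.81%.

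**Figure D2:**
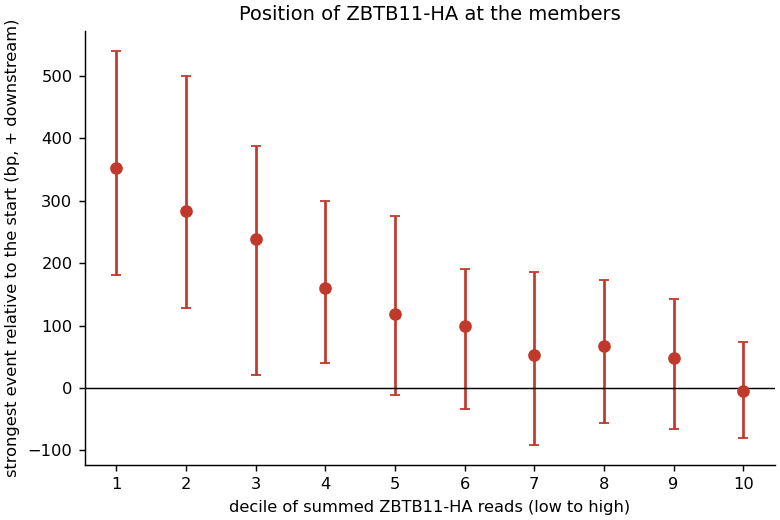
Position of the strongest ZBTB11-HA event relative to the start site in bp (vertical axis, positive downstream) by decile of summed ZBTB11-HA reads (horizontal axis). Points are medians and bars run between the quartiles; the median is 353 bp in decile 1 and -4 bp in decile 10.

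Occupancy in wildtype changed with the decile to different degrees. SETD1A events were listed at 71.3% of members in decile 1 and at 89.3% in decile 10. CHD4 events ran the other way, with 24.1% in decile 1 and 11.1% in decile 10. Promoters bound by both factors had more of each, at 96.5% with SETD1A and 27.6% with CHD4, and a higher median of 3604 H3K4me3 reads against 2415 at the members. Unbound promoters had a median of 642 H3K4me3 reads, and SETD1A was listed at 35.4% of them.

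In Zbtb11KO, a part of the most strongly bound promoters gained H3K27me3. A domain of that mark was listed at 57 of 497 members in decile 10 (11.5%), against 7.23% in decile 1, 8.05% in decile 2 and 2.41% in decile 9, the highest and lowest of the other deciles being deciles 2 and 9. In Zfp131KO the share ran down with binding strength, with 16.3% in decile 1 and 1.61% in decile 10. In the authors' deposited table for Zbtb11KO, 289 members had a region, and H3K27me3 rose (DESeq2, adjusted p under 0.05) at 113 of them and fell at 0. Over all its regions, 9.09% were called higher and 4.83% lower. Regions at the members exist only where the knockout list holds a domain, and the choice of the members leaves no room for a fall. The count is therefore only described, by decile. It was 39 of 57 regions in decile 10, with a median log2 fold change of 2.45, and 74 of 232 in deciles 1 to 9, with a median of 1.06. The other active promoters were also chosen free of H3K27me3 in wildtype. In Zbtb11KO the mark rose at 30 of 70 regions at those bound by both factors and at 4 of 9 bound by ZFP131 alone. At unbound ones it rose at 65 of 332 regions. A domain was listed in Zbtb11KO at 289 of 4975 members and at 332 of 5930 unbound promoters. Gaining a domain was therefore not particular to the members as a whole.

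Of 18 members of which at least 50% was covered by H3K27me3 domains in Zbtb11KO, 16 were in decile 10. The exceptions were Ano8 in decile 7 and the promoter of Ctsa and Neurl2 in decile 6, and at both of these H3K27me3 domains were also listed in Zfp131KO, as they were at 1 of the 16, Tsnax. Among the 16 were several genes of mitochondria: Mrpl13 and Mrps18c of the mitochondrial ribosome, Taco1 (translation of a cytochrome oxidase subunit), Ndufaf1 (assembly of respiratory complex I) and Acsf3 (malonyl-CoA synthesis). Others were the imprinted ring finger gene Mkrn3, the zinc finger gene Zfp11, Nkap, Adat2 (tRNA editing) with Pex3 (peroxisome formation), Wdr83 with Wdr83os, Drg2, Aar2 (assembly of the U5 splicing particle), Slc4a1ap with Supt7l (a subunit of the SAGA complex), Tsnax and Zmpste24, the protease gene of lamin A maturation. The last of the 16, on chromosome 10, had no gene assigned.

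At Mkrn3, 78.7% of the domain was covered in Zbtb11KO by H3K27me3 with 590 reads, and 0 reads of that mark were listed in Zfp131KO. H3K4me3 at Mkrn3 had 315 reads in Zbtb11KO, 3661 in Zfp131KO, 974 in the double knockout and 2308 in wildtype. H3K27ac there was listed at 0 in Zbtb11KO, against 102 reads in Zfp131KO and 139 in wildtype. In the authors' deposited table H3K27ac at Mkrn3 fell by 3.10 on the log2 scale in Zbtb11KO (SE 0.54, adjusted p = 5.26e-07, DESeq2). The Zbtb11KO value was the lowest of the genotypes for each of these active marks.

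At the promoter shared by Mrpl13 and Mtbp, the cover was 92.6%, the widest of all members. H3K4me3 had 1089 reads there in Zbtb11KO, 3432 in Zfp131KO, 2900 in the double knockout and 4007 in wildtype. In the authors' deposited table H3K27me3 there rose by 3.84 in Zbtb11KO (SE 0.69, adjusted p = 2.59e-06, DESeq2) and H3K27ac fell by 1.40 (SE 0.33, adjusted p = 0.000305). At Zmpste24, H3K4me3 had 151 reads in Zbtb11KO, 2152 in Zfp131KO, 907 in the double knockout and 2657 in wildtype. Acsf3 was listed at 0 H3K4me3 reads in Zbtb11KO, with 1279 in Zfp131KO, 93 in the double knockout and 1142 in wildtype. Tsnax stood apart, with 3061 H3K4me3 reads in Zbtb11KO, 2919 in Zfp131KO, 3959 in the double knockout and 2794 in wildtype, and its H3K27me3 log2 fold change in the authors' deposited table was 0.48 (adjusted p = 0.44).

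**Figure D3:**
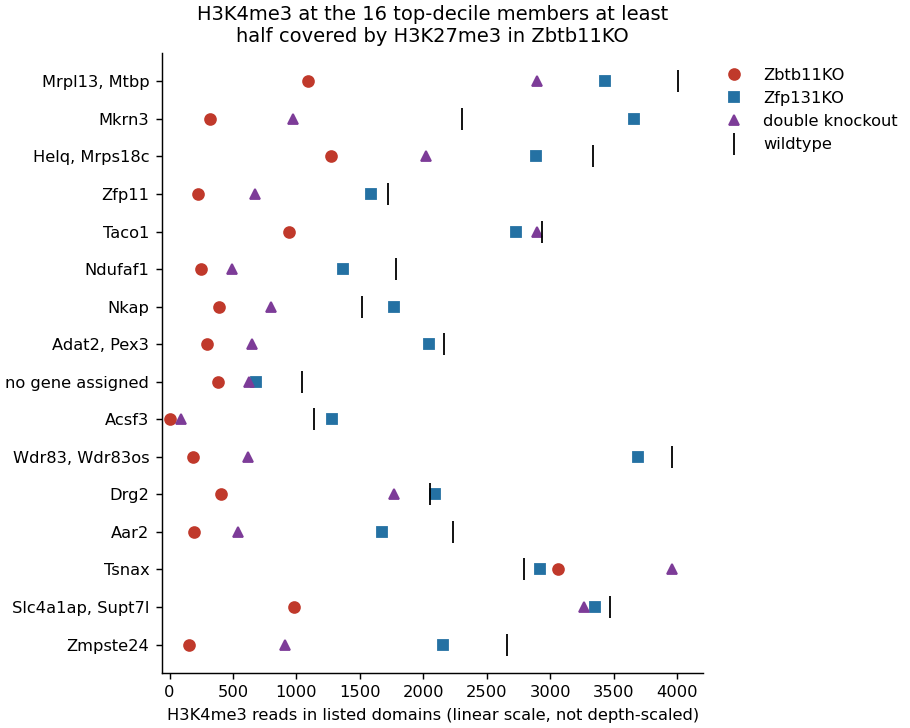
H3K4me3 reads in listed domains (horizontal axis, linear, not scaled for depth) at the 16 members of decile 10 of which at least 50% was covered by H3K27me3 in Zbtb11KO, one row per promoter. Symbols give the pooled value of Zbtb11KO, Zfp131KO, the double knockout and wildtype; Zbtb11KO lies lowest in every row except Tsnax.

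At most of the 16 promoters the active marks and cofactors were lower in Zbtb11KO. In the authors' deposited tables H3K27ac fell at 14, H3K4me3 fell at 13 and rose at 1 (Tsnax), NELF fell at 14 and SIN3A fell at 10. H3K27me3 rose at 14, but the 16 were chosen by their cover with that mark in Zbtb11KO. Its rise and its fold changes here therefore restate the choice. Over all regions of these tables, H3K27me3 was called higher at 9.09%. H3K27ac was called lower at 11.8%, H3K4me3 at 12.9%, NELF at 49.0% and SIN3A at 3.23%. At the 16, the median log2 fold change was 3.32 for H3K27me3, -1.75 for H3K27ac and -1.99 for NELF. Listed H3K4me3 reads had a median log2 ratio to wildtype of -2.35 in Zbtb11KO over the 15 promoters still listed, against -0.10 in Zfp131KO. In the double knockout the ratio was -1.09. These reads are not scaled for depth, and over all members the median ratio was -0.45 in Zbtb11KO, 0.76 in the double knockout and -0.09 in Zfp131KO, so the 16 lay far below the members' median in Zbtb11KO and in the double knockout. An H3K27ac domain was listed at 4 of the 16 in Zbtb11KO, at 15 in Zfp131KO and at 16 in wildtype. A NELF event was listed at 10 in Zbtb11KO, at 16 in Zfp131KO and at 16 in wildtype. The wider group of 57 showed the same marks changing. H3K27ac fell at 36 of its 55 regions, H3K4me3 at 42 of 57, NELF at 55 of 57 and SIN3A at 22 of 57. Among the 440 members of decile 10 with no H3K27me3 domain in Zbtb11KO, H3K27ac fell at 52 of 429 regions, H3K4me3 at 197 of 440, NELF at 277 of 433 and SIN3A at 22 of 433, while SIN3A rose at 62. In deciles 1 to 9, the 232 members with such a domain had H3K27ac lower at 40 of 187 regions and higher at 4. In the authors' deposited table H3K4me3 rose at 119 of the 232 and fell at 61, with a median log2 fold change of 0.43. In deciles 1 to 9 as a whole it rose at 42.2% of members. Listed H3K4me3 reads of the 232 had a median log2 ratio of -0.39 in Zbtb11KO, near the -0.45 of all members. How many of them rose therefore depends on the scaling of that table.

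H3K27ac, the mark of active promoters and enhancers, was called lower in Zbtb11KO most often in decile 10, the strongest bound. It fell at 368 of 4676 members with a region (7.87%) and rose at 143 (3.06%), against 11.8% lower and 14.6% higher over all regions of the authors' deposited table, so the members as a whole changed less often than the table did. In decile 10 it fell at 88 of 484 members (18.2%), against 6.68% of members in deciles 1 to 9 and 11.8% of all regions. Of these falls, 36 lay at 55 regions of members with an H3K27me3 domain in Zbtb11KO. The other 52 lay at 429 regions of members without one, a share near that of all regions. Below decile 10 the share called lower did not climb with binding: it was 9.35% in decile 1, 9.31% in decile 3, 5.45% in decile 7 and 4.30% in decile 9. Within decile 10 the falls lay at the strongest promoters: they numbered 18, 18, 15, 10, 12, 7, 1, 6, 1 and 0 in successive ranks of 50 from the strongest down, the last rank holding 47. Among the 5930 unbound active promoters H3K27ac fell at 11.7%, and at 7.27% of those bound by both factors.

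Among named falls in decile 10, Agk, a mitochondrial lipid kinase gene, had 83 H3K27ac reads in Zbtb11KO, 162 in Zfp131KO and 209 in wildtype. In the authors' deposited table it fell by 2.06 in Zbtb11KO (SE 0.39, adjusted p = 3.66e-06, DESeq2). Zfp770 had 24 reads in Zbtb11KO, 182 in Zfp131KO and 222 in wildtype, and fell by 2.00 (SE 0.37) in the authors' deposited table. Nelfb, which encodes a subunit of NELF itself and shares its promoter with Stpg3, had 23 reads in Zbtb11KO, 318 in Zfp131KO and 381 in wildtype, a fall of 1.89 (SE 0.35, adjusted p = 2.87e-06, DESeq2) in the authors' deposited table. These promoters were low in Zbtb11KO and close to wildtype in Zfp131KO. Most of the falls named for their size lay outside decile 10. Of these 6, 3 were also called lower in Zfp131KO. Zeb2, a transcriptional repressor gene of decile 2, was listed at 0 reads in Zbtb11KO and in Zfp131KO, against 73 in wildtype, with log2 fold changes of -2.57 (SE 0.46) in Zbtb11KO and -2.69 (SE 0.46) in Zfp131KO in the authors' deposited tables. Meis3, a homeobox gene of decile 4, had log2 fold changes of -2.15 (SE 0.32) in Zbtb11KO and -2.53 (SE 0.69) in Zfp131KO in the authors' deposited tables, with 0 reads listed in both against 17 in wildtype. The promoter of Arhgef25 and Dtx3, in decile 9, had no listed H3K27ac in Zbtb11KO, 28 reads in Zfp131KO and 123 in wildtype. Its log2 fold change was -2.24 (SE 0.69) in Zbtb11KO and -0.96 (SE 0.31) in Zfp131KO in the authors' deposited tables. Tmem115, Tbkbp1 and the promoter of Hmbox1 and Ints9 were the other named falls, with log2 fold changes between -2.43 and -1.92. Over the whole domain, Tmem115 had 199 listed reads in Zbtb11KO against 216 in wildtype, and Hmbox1 had 301 in Zbtb11KO against 311 in wildtype, so these falls lay in the region of the table and not in the listed total. The 8 named rises lay in deciles 1 to 7 and included Igfbp2, a binding protein gene of insulin-like growth factors, with 1.78 (SE 0.53), and Hyls1 with 1.88 (SE 0.27). Listed H3K27ac reads at Hyls1 were 437 in Zbtb11KO and 440 in wildtype, so the rise in the table was not seen over the whole domain.

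**Figure D4:**
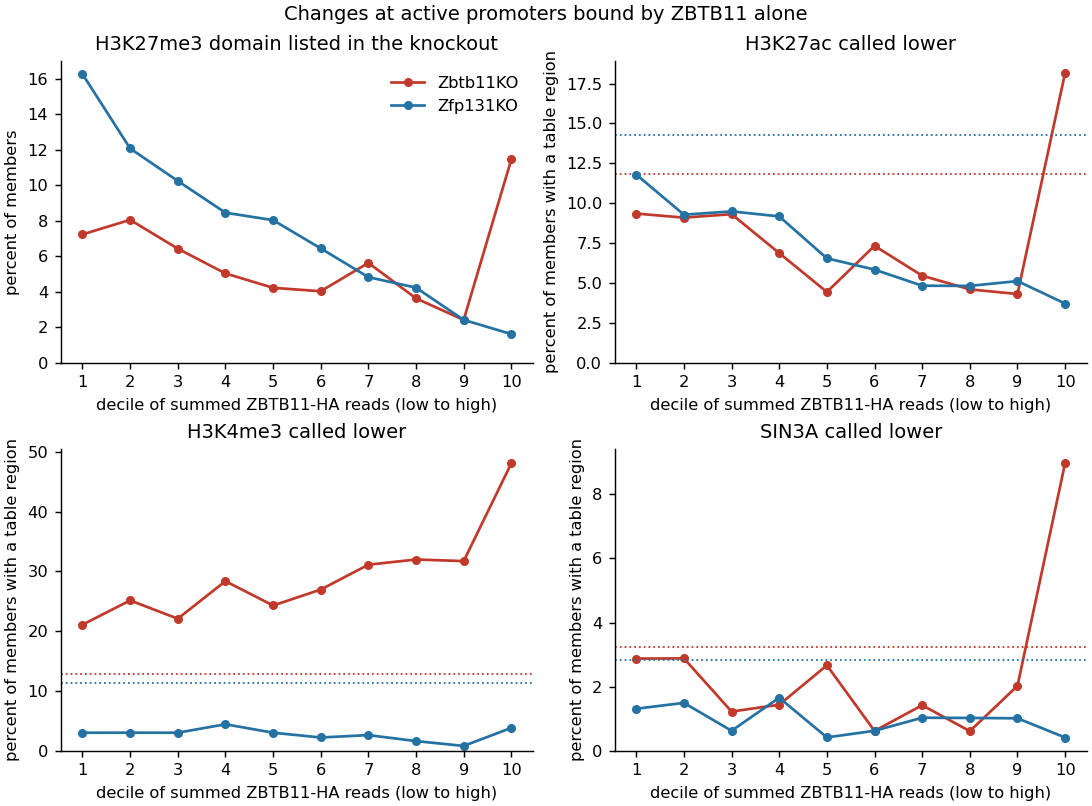
Percent of members with an H3K27me3 domain in each knockout, and percent of members with a table region at which H3K27ac, H3K4me3 or SIN3A was called lower (vertical axes), by decile of summed ZBTB11-HA reads (horizontal axes). Points are deciles, red is Zbtb11KO, blue is Zfp131KO, and dotted lines give the share over all regions of the table; in decile 10 H3K27ac was called lower at 18.2% of members in Zbtb11KO and at 3.70% in Zfp131KO.

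H3K4me3, the mark that SETD1 and MLL enzymes place at promoters, was also called lower most often in decile 10 in Zbtb11KO. Its wildtype list took part in choosing the members, so these counts are described by decile and support nothing. In the authors' deposited table it fell at 239 of 497 members in decile 10 (48.1%) and at 1208 of 4478 in deciles 1 to 9, where the share was 21.1% in decile 1 and 31.7% in decile 9. Over all 4975 members 1447 fell (29.1%) and 2010 rose (40.4%), against 12.9% lower and 21.6% higher over all regions. Fold changes of this table ran wide: the interquartile range over members was 1.78 on the log2 scale, against 0.637 for the log2 ratio of listed reads, and the rank correlation of both measures, which come from the same libraries, was 0.834 over 4961 members. In Zfp131KO the range was 0.377 for the table and 0.402 for listed reads. The Zbtb11KO fold changes are therefore read by rank, with listed reads beside them. The median log2 ratio of listed reads to wildtype was -0.45 over all members and -0.65 in decile 10 in Zbtb11KO, while the table's median over members was 0.03, so how many members rose depends on the scaling. At the named falls of decile 10 the listed reads were low as well. Ttc26, a gene of transport within cilia, had 42 reads in Zbtb11KO, 864 in Zfp131KO, 203 in the double knockout and 1901 in wildtype. Wdr83 with Wdr83os had 182 reads in Zbtb11KO, 3689 in Zfp131KO, 622 in the double knockout and 3963 in wildtype. Psmg3, a chaperone gene of proteasome assembly, had 170 reads in Zbtb11KO, 2730 in Zfp131KO, 631 in the double knockout and 2397 in wildtype. All 3 were far below wildtype in Zbtb11KO and low in the double knockout too. In Zfp131KO, Wdr83 and Psmg3 lay close to wildtype and Ttc26 was lower, with a log2 fold change of -0.80 (SE 0.25) in the authors' deposited table. Ndufaf1 has a pair of member domains, of which the smaller was listed at 0 reads in Zbtb11KO, 105 in Zfp131KO, 0 in the double knockout and 395 in wildtype. Only 2 of the 8 named falls lay outside the strong deciles, namely Lgals1 (galectin 1) in decile 1 and Selenbp1 in decile 2. The largest named rise was at Sirt7, a deacetylase gene in decile 8, with 3827 listed reads in Zbtb11KO and 2765 in wildtype and a log2 fold change of 4.46 (SE 0.07) in the authors' deposited table.

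Not every strong promoter was called lower for H3K27ac in Zbtb11KO. Banf1 with Eif1ad had 5024 H3K4me3 reads in Zbtb11KO, 6606 in Zfp131KO, 11827 in the double knockout and 6461 in wildtype, and its H3K27ac log2 fold change in Zbtb11KO was -0.11 (SE 0.26, adjusted p = 0.79, DESeq2, the authors' deposited table). Tnpo3 had 3285 H3K4me3 reads in Zbtb11KO, 4806 in Zfp131KO, 8184 in the double knockout and 5122 in wildtype. Its H3K27ac log2 fold change was 0.03 (SE 0.29) in the authors' deposited table. Alg3, with nearly the same ZBTB11-HA reads, had 648 H3K4me3 reads in Zbtb11KO, 3542 in Zfp131KO, 823 in the double knockout and 3902 in wildtype, and H3K27ac fell by 2.01 (SE 0.36, adjusted p = 1.27e-06, DESeq2) in the authors' deposited table. Strong promoters with and without the ETS core both held such falls: within decile 10, H3K27ac was called lower at 16.0% of members with the core in a window and at 21.9% of those without it. An H3K27me3 domain was listed in Zbtb11KO at 9.17% of those with the core and at 13.5% of those without it.

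NELF, the pausing factor, fell at most members in Zbtb11KO and was also called lower at a large share of the whole table. It fell at 2942 of 4874 members with a region (60.4%) and rose at 1, against 49.0% lower and 0.159% higher over all regions of the authors' deposited table. The median log2 fold change was -0.96 at the members and -1.04 over all regions, and centring the table on its own median leaves 8 falls and 8 rises at the members. By decile the share called lower was 54.7% in decile 1, between 57.3% and 63.7% in deciles 2 to 9 and 67.8% in decile 10. The largest named fall was at Zfp11, with 151.2 NELF reads in Zbtb11KO, 703.6 in Zfp131KO, 0 in the double knockout and 1006.8 in wildtype, a log2 fold change of -3.02 (SE 0.35, adjusted p = 1.83e-13, DESeq2) in the authors' deposited table. Gtpbp3, a gene of mitochondrial tRNA modification, had NELF listed at 0 reads in Zbtb11KO, Zfp131KO and the double knockout, against 456.6 in wildtype. Antkmt, Katnal1, Them4 and Tmem242 of decile 10 and Trap1a and Arhgap23 of decile 1 were the other named falls, with log2 fold changes between -2.70 and -2.43. NELF was compared in Zfp131KO and the double knockout by event lists, whose reads were divided by each list's total of reads. The wildtype list names 1 replicate and the others 2. Events were listed at 80.6% of members in Zbtb11KO, 84.0% in Zfp131KO, 58.8% in the double knockout and 98.2% in wildtype. Over the members still listed in a knockout, the median scaled log2 ratio to wildtype was -1.75 in the double knockout, -0.92 in Zbtb11KO and -0.65 in Zfp131KO; members with no listed event have no ratio.

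SIN3A both rose and fell at strong members in Zbtb11KO. It rose at 331 of 4894 members with a region (6.76%) and fell at 121 (2.47%), against 3.44% higher and 3.23% lower over all regions of the authors' deposited table. In decile 10 it rose at 63 of 490 (12.9%) and fell at 44 (8.98%), and it fell at 1.75% in deciles 1 to 9. With the region of longest overlap in place of the one with the highest signal, it rose at 201 members and fell at 81. Wdr31 had 66.6 SIN3A reads in Zbtb11KO and 432.3 in wildtype, a log2 fold change of -2.30 (SE 0.23, adjusted p = 6.23e-19, DESeq2) in the authors' deposited table. In the same authors' deposited table the log2 fold change was -2.25 (SE 0.23) at Wdr83, -2.22 (SE 0.26) at Ttc26 and -2.02 (SE 0.28) at Mnat1, which encodes a subunit of the CDK-activating kinase. All 4 were in decile 10. Named rises at Eif2s3x (a subunit of translation initiation factor eIF2), Amer1 and Las1l (ribosome maturation) lay on chromosome X. Eif2s3x had 946.7 SIN3A reads in Zbtb11KO and 394.5 in wildtype, a log2 fold change of 1.59 (SE 0.17, adjusted p = 1.73e-16, DESeq2) in the authors' deposited table. Of 106 X-linked members with a region, SIN3A rose at 21 (19.8%), against 310 of 4788 on the autosomes (6.47%), in Zbtb11KO, and in Zfp131KO it rose at 2 of 102. CHD4 in Zbtb11KO had a median log2 fold change of 0.74 at 9 X-linked members and -0.04 at 961 autosomal ones, and H3K27ac rose at 8 of 95 X-linked members (8.42%) and fell at 11, while it rose at 2.95% of autosomal ones. By single autosome, the share with a SIN3A rise in Zbtb11KO ran between 2.53% on chromosome 11 and 14.9% on chromosome 16. The median SIN3A log2 fold change was 0.19 on chromosome X and 0.30 on chromosome 16. H3K27ac rose at 7.93% of members with a region on chromosome 16, close to the share on chromosome X. The cause of these differences between chromosomes was not tested.

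CHD4 changed at few members. In Zbtb11KO it rose at 16 of 970 members with a region (1.65%) and fell at 3 (0.309%), against 9.38% higher and 2.82% lower over all regions of the authors' deposited table. Amer1 had the largest named rise, of 1.74 on the log2 scale (SE 0.37) in the authors' deposited table. In Zfp131KO it rose at 12 of 1259 (0.953%) and fell at 67 (5.32%), against 8.05% higher and 8.08% lower over all regions. Meis3 had the largest named fall there, with a log2 fold change of -1.51 (SE 0.41, adjusted p = 0.00386, DESeq2) in the authors' deposited table.

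Loss of ZFP131, the factor with no listed event at these promoters, gave other numbers. In the authors' deposited tables for Zfp131KO, H3K27ac fell at 326 of 4683 members (6.96%) and rose at 204 (4.36%), against 14.3% lower and 15.8% higher over all regions. The falls thinned out with ZBTB11 binding: 11.8% of members fell in decile 1 and 3.70% in decile 10. At the promoters bound by ZFP131 alone 22.9% fell. Foxh1, which encodes a SMAD partner in NODAL signalling and shares its promoter with Kifc2, had H3K27ac listed at 10 reads in Zbtb11KO, 0 in Zfp131KO and 86 in wildtype, and fell by 3.22 (SE 0.36, adjusted p = 1.01e-15, DESeq2) in Zfp131KO in the authors' deposited table. Vegfc, a growth factor gene, had 510 reads in Zbtb11KO, 1012 in Zfp131KO and 244 in wildtype, a rise of 1.73 (SE 0.29) in Zfp131KO in the authors' deposited table. Fn1, the fibronectin gene, had 104 reads in Zbtb11KO, 602 in Zfp131KO and 182 in wildtype and rose by 1.61 (SE 0.37) in Zfp131KO.

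H3K4me3 in Zfp131KO rose at 1834 of 4975 members (36.9%) and fell at 137 (2.75%), against 15.1% higher and 11.4% lower over all regions of the authors' deposited table. The shifts were small, with a median log2 fold change of 0.24, and the listed reads had a median log2 ratio of -0.09. The share that rose was 26.7% in decile 1 and 41.0% in decile 10. Chd2, a chromatin remodeller gene of decile 10, was an exception with 1799 H3K4me3 reads in Zbtb11KO, 1439 in Zfp131KO, 10449 in the double knockout and 6941 in wildtype, and it fell by 1.82 (SE 0.28) in Zfp131KO in the authors' deposited table. Eng, the endoglin gene, had 1832 H3K4me3 reads in Zbtb11KO, 3811 in Zfp131KO, 6380 in the double knockout and 1042 in wildtype, and rose by 2.12 (SE 0.18) in Zfp131KO in the authors' deposited table.

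H3K27me3 in Zfp131KO rose at 145 of 371 members with a region and fell at 0, against 11.7% higher and 6.18% lower over all regions of the authors' deposited table, with the same limits of choice as above. Only 2 of these rises were in decile 10 and 32 were in decile 1. H3K27me3 also rose at 83 of 147 regions at promoters bound by both factors and at 33 of 47 bound by ZFP131 alone. At unbound promoters it rose at 233 of 588 regions. Fads1, a fatty acid desaturase gene, had the largest named rise, of 3.37 on the log2 scale (SE 0.70) in the authors' deposited table, on 17 listed reads in Zfp131KO. SIN3A in Zfp131KO rose at 319 of 4812 members (6.63%) and fell at 46 (0.956%), against 2.98% higher and 2.84% lower over all regions of the authors' deposited table. In decile 10 it fell at 2 of 486 members, against 44 of 490 in Zbtb11KO, a difference between comparisons that share the wildtype libraries and was not tested.

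The double knockout was measured for NELF and H3K4me3 at these promoters by lists only. Members on chromosome 14 stood apart there. The 152 members on it had a median log2 ratio of listed H3K4me3 reads to wildtype of -0.03, against 0.60 to 0.99 on the other chromosomes, and of scaled NELF reads of -2.75, against -1.94 to -1.60. NELF events were listed at 43 of the 152 (28.3%) in the double knockout, at 124 in Zbtb11KO, where the median log2 ratio was -0.85, and at 133 in Zfp131KO, where it was -0.59. Promoters bound by both factors and unbound ones on chromosome 14 had low ratios as well, with medians for H3K4me3 of 0.00 at the 59 bound by both and -0.28 at the 181 unbound ones. Without chromosome 14 the members' medians in the double knockout were 0.77 for H3K4me3 and -1.74 for NELF, and with it they were 0.76 for H3K4me3 and -1.75 for NELF. What sets the chromosome apart was not tested. The lists of H3K4me3 domains give no library totals, so the level of 0.76 cannot be read as a gain.

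**Figure D5:**
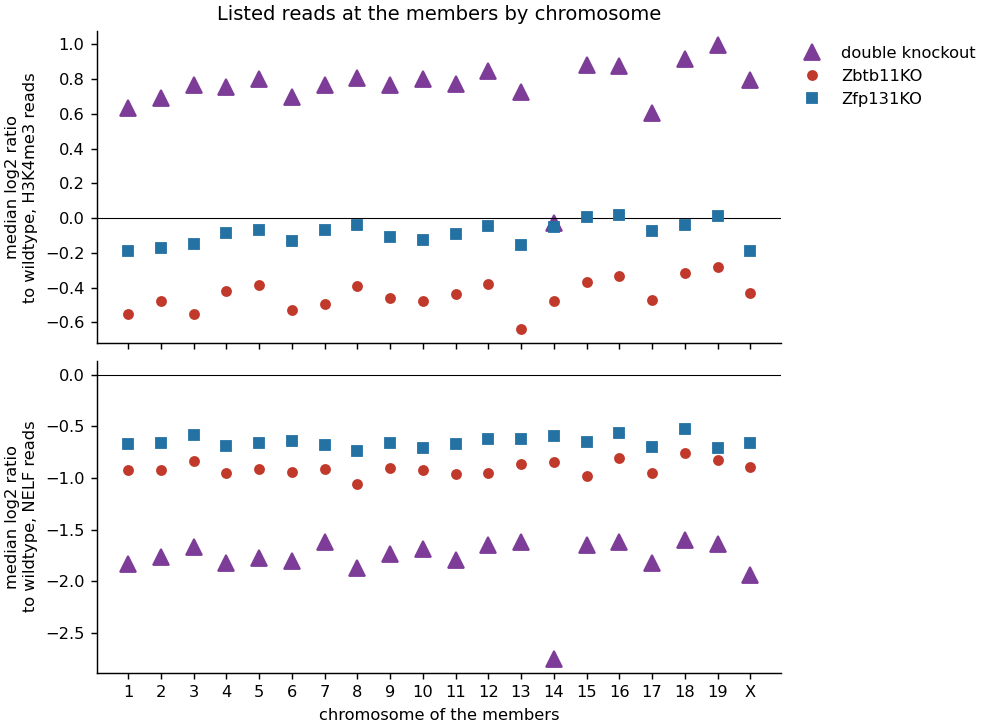
Median log2 ratio to wildtype over members of listed H3K4me3 reads (upper panel, not scaled for depth) and of NELF event reads scaled by total reads (lower panel), by chromosome (horizontal axis). Triangles are the double knockout, circles Zbtb11KO and squares Zfp131KO; in the double knockout chromosome 14 lies at -0.03 and -2.75, below every other chromosome.

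By gene function, genes of the mitochondrial ribosome lay among the strongest members at a larger share than all genes did. Of all 21896 protein-coding genes, 4414 (20.2%) lay at a member and 551 (2.52%) at a member of decile 10. In addition, 1554 lay at active promoters bound by both factors, 349 at those bound by ZFP131 alone and 2965 at unbound ones. The shares of all genes thus include many genes with no active promoter here. Of 78 genes of the mitochondrial ribosome, 45 lay at a member (57.7%) and 17 in decile 10 (21.8%). Active promoters bound by both factors held 11 of the 78, those bound by ZFP131 alone 6 and unbound ones 11. Other lists of housekeeping functions lay at members about as often and less in decile 10: 40 of 77 genes of the cytosolic ribosome with 7 in decile 10, 23 of 39 of the proteasome with 4, 20 of 41 of ribosome formation with 4, and 30 of 48 of respiratory complexes II to V with 1. Of 49 genes of complex I, 20 lay at a member and 6 in decile 10, of 17 mitochondrial tRNA synthetase genes 10 and 2, and of 17 cytosolic tRNA synthetase genes 10 and 1. Of 22 pluripotency genes, 6 lay at a member and 0 in decile 10; of 15 p53 targets, 6 and 1; of 12 housekeeping reference genes, 3 and 0. Primitive endoderm, fibroblast and neural marker genes lay at 0 members. These are counts with no test, beside the counts for all genes.

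Calls in Zbtb11KO within decile 10 were counted for both ribosomal lists, with no test of their difference. At the 17 mitochondrial ribosome promoters, H3K27ac fell at 7, H3K4me3 at 12 and NELF at 14, and an H3K27me3 domain was listed at 4. At the 7 cytosolic ribosome promoters, H3K27ac fell at 0, H3K4me3 at 3 and NELF at 1, and an H3K27me3 domain was listed at 0. Over all 457 members of decile 10 at a protein-coding gene, H3K27ac fell at 80 of 448 regions, H3K4me3 at 219 of 457 and NELF at 303 of 454, and an H3K27me3 domain was listed at 53. Mrps31, of the small mitochondrial subunit, had 558 H3K4me3 reads in Zbtb11KO, 2437 in Zfp131KO, 1654 in the double knockout and 3090 in wildtype. Its H3K27ac was listed at 0 reads in Zbtb11KO, 176 in Zfp131KO and 219 in wildtype, and SIN3A had 68.7 reads in Zbtb11KO and 314.9 in wildtype. Mrpl40, which shares a promoter with the histone chaperone gene Hira, had 4702 H3K4me3 reads in Zbtb11KO, 7409 in Zfp131KO, 12370 in the double knockout and 6427 in wildtype, and its H3K27ac log2 fold change was 0.15 (SE 0.30, the authors' deposited table). Mrps31 was lowest in Zbtb11KO for all 3 targets among the genotypes given, which for SIN3A were Zbtb11KO and wildtype only. Mrpl40 was not low for H3K27ac. Rps7 of the cytosolic ribosome had 4421 H3K4me3 reads in Zbtb11KO, 5056 in Zfp131KO, 10558 in the double knockout and 5051 in wildtype. Sox2, the pluripotency factor gene, lay in decile 7 with 220.1 ZBTB11-HA reads. NELF at Sox2 had 181.2 reads in Zbtb11KO, 504.6 in Zfp131KO, 0 in the double knockout and 1897 in wildtype, and fell by 1.93 (SE 0.36, adjusted p = 1.35e-05, DESeq2) in Zbtb11KO in the authors' deposited table, while H3K27ac rose there by 1.14 (SE 0.44, adjusted p = 0.037).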

How the data were processed

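ChIP-seq of 9 targets in mouse embryonic stem cells of 4 genotypes was analysed from pooled or compared values: no file holds a value per library at a promoter, and there were 0 columns of other samples. The submitters' processing notes name mm10, Bowtie 1.0.1, bedtools and DESeq2 1.28.1. Events were called by the authors with MultiGPS, per the file headers, and their signal is the reads assigned to an event over replicates, beside a log2 fold over control and a score (log2 of a p-value). Each domain has a p-value and a read count, per the file headers, which name SEED (DomainFinder), a p limit of 0.01, the ENCODE blacklist as left out and both replicates in 1 pool. For every region the authors' deposited tables list the log2 fold change and SE, the mean signal, the Wald score and the raw and adjusted p-value (Benjamini-Hochberg), and their scaling is not given in the sources used here.

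The planned count model needs counts per library, so calls are those of the authors' DESeq2 tables at an adjusted p under 0.05. Each promoter took the overlapping region with the highest mean signal. Listed reads were summed over events or domains at the promoter. NELF and SIN3A event reads are as listed, and NELF ratios were scaled by header totals; domain reads were not scaled for depth. Ratios need at least 50 wildtype reads. The deposited NELF table for Zfp131KO was identical to that for Zbtb11KO, and the SIN3A event list of Zfp131KO to its CHD4 list, so neither was used here.

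Genes came from RefSeq (GRCm38.p6), with 21896 protein-coding genes: 17491 have a start site in the promoter table and were assigned within 500 bp, and 4405 have gene ends only and were assigned within 1 kb. In all, 3309 promoters lay at a start and 653 at a gene end only. Named genes are the largest calls per table, 8 rises and 8 falls, or 4 and 4 for smaller tables. Each such call lies at a gene and has a mean signal that reached the table's median. Named too are the 10 members at a gene start with the most ZBTB11-HA reads and up to 4 per gene list. Those at least 50% covered by H3K27me3 are also named, which was added after their values were seen. One gene that this rule takes is not reported here. Members and lists were chosen with earlier results of these data known. Overlaps and decile counts were tested on simulated data. Python 3.11.15, pandas 2.3.3, numpy 2.4.6, scipy 1.17.1 and matplotlib 3.10.9 were used. Alternatives varied the distance, the domain length, the events, the region taken, the threshold, the centring and the deciles.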

Additional observations from a re-analysis of the deposited data

How the results depend on the processing

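No paired analysis was possible because the files hold no values per library, and for the same reason no replicate could be left out. Of 168 recomputed values, 139 stayed within the limits set for them and 29 moved. The limits were set on the size of a count or share and did not assess direction. With ZBTB11-HA events in the upper part of the list by reads only, there were 3331 members in place of 4975, so fewer could be called. The called members in Zbtb11KO then numbered 73 for H3K27me3, 306 for H3K27ac and 12 for CHD4. In Zfp131KO they numbered 63 for H3K27me3, 293 for H3K27ac and 51 for CHD4. At an adjusted p under 0.01 those in Zbtb11KO numbered 74 for H3K27me3, 247 for H3K27ac, 1585 for NELF, 4 for CHD4 and 189 for SIN3A, and those in Zfp131KO 80 for H3K27me3, 267 for H3K27ac, 14 for CHD4 and 132 for SIN3A. With promoters at protein-coding genes only they were 349 for H3K27ac in Zfp131KO and 10 for CHD4 in Zbtb11KO, where fewer promoters enter. With the region of longest overlap they were 282 for SIN3A in Zbtb11KO, and the cause was not tested. Centring the NELF table on its median, a shift of -1.04, left 16 calls, 8 lower and 8 higher, against 2942 lower and 1 higher without it. In the top decile of Zbtb11KO, the share with an H3K27me3 domain was 16.2% with stronger events and 3.22% where at least 50% had to be covered. H3K27ac was lower at 24.3% with stronger events and 10.9% at p under 0.01 (otherwise 17.7% of all top-decile members, with or without a region). H3K4me3 was lower at 55.9%, at 43.5% at p under 0.01 and at 40.2% after centring. H3K27me3 was higher at 11.4% with stronger events. NELF was lower at 37.8% at p under 0.01 and 1.01% after centring. Deciles per kb, and deciles within classes of wildtype H3K4me3 reads, gave 17.9% and 17.4% for H3K27ac and 11.5% and 11.1% for the H3K27me3 domain. Leaving out chromosomes 14 and X, or the mitochondrial member, both added after the data were seen, moved no count past its limit. Depth per domain list is unknown, so listed domain reads compare promoters within a genotype better than genotypes.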

Other observations

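The domain on the mitochondrial genome had the most ZBTB11-HA reads, 9229.3 in 6 events. Its H3K4me3 reads were 0 in Zbtb11KO, 0 in Zfp131KO, 12856 in the double knockout and 6724 in wildtype, and it held no listed event or domain of the other targets. H3K4me3 domains there are listed in some genotypes only, and the values are given without a comparison.

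Among the factors under study, Sin3a lay in decile 9 with 492.3 ZBTB11-HA reads, Chd4 in decile 5 with 126.1 and Nelfcd, a NELF subunit gene, in decile 3 with 64.9. NELF reads at Sin3a were 271.4 in Zbtb11KO, 549.9 in Zfp131KO, 0 in the double knockout and 2086 in wildtype, the widest gap to wildtype of the factor genes named.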
